A study of Mus musculus with 4 samples.

Results

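The data described here are the transcriptomes of 266 regulatory T cells (Treg) among 42710 kept barcodes of single-cell RNA sequencing libraries from subcutaneous MC38 tumours. MC38 is a mouse colon carcinoma line. Tumours grew in the left flank of C57BL/6J mice aged 8 weeks that had been injected with cells in which Hnrnpa2b1, the gene of an RNA-binding protein, had been knocked out (KO) or left intact (WT). Each group held 2 tumours, numbered 1 and 2, and the host mice were of the same strain in both groups. Only the injected cells carried the edit, so the T cells are host cells with an unedited Hnrnpa2b1. Tumours were digested with collagenases, dispase and DNase, and no sort or enrichment of immune cells is stated. The labels do not say what a replicate number shares between groups. P-values between KO and WT rest on 2 tumours a group, and those between cell classes on differences within tumours.

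A barcode was kept with at least 300 genes, at least 500 UMIs (unique molecular identifiers, each standing for 1 captured transcript) and at most 20% mitochondrial UMIs. Treg were then the barcodes with at least 1 Foxp3 UMI, at least 1 UMI of Cd3d, Cd3e or Cd3g, no UMI of Cd8a, Cd8b1, Csf1r or C1qa, and fewer than 20 UMIs per 10000 from 7 tumour-cell genes. WT tumour 1 held 66 of them, WT tumour 2 held 31, KO tumour 1 held 81 and KO tumour 2 held 88. The members were thus chosen by the UMIs of Foxp3, the Cd3 genes, the excluded genes and the tumour genes, so their values are given as a description without a test.

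Regulatory T cells are CD4 T cells that restrain other lymphocytes. Their lineage factor is the forkhead protein FOXP3, and most carry the high-affinity interleukin-2 receptor chain CD25, encoded by Il2ra, with which they take up interleukin-2 from their surroundings. They limit the activation of other cells through CTLA4, interleukin-10, surface-bound TGF-beta presented by GARP (Lrrc32) and, in some settings, granzyme B. In tumours they often show an activated form with high TNF receptor family members and chemokine receptors, and effector Treg can also make amphiregulin (Areg), an epidermal growth factor receptor ligand tied to tissue repair.

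Of 568 kept barcodes with a Foxp3 UMI, 457 also held a Cd3 UMI and 435 of these were under the tumour-gene limit. A Csf1r or C1qa UMI then removed 151 and a Cd8a or Cd8b1 UMI another 18. The first of these exclusions took 19.8%, 22.5%, 42.3% and 38.6% of the barcodes left at that step in WT 1, WT 2, KO 1 and KO 2. The KO tumours thus lost a larger part of their Foxp3 and Cd3 barcodes to these 2 macrophage genes. Those 151 barcodes numbered 17, 9, 66 and 59 in WT 1, WT 2, KO 1 and KO 2. They are counted among all barcodes under the tumour-gene limit with a Csf1r or C1qa UMI. Of all these, the share with Foxp3 was 0.799%, 0.452%, 1.37% and 1.69% in WT 1, WT 2, KO 1 and KO 2, at median depths of 8000, 4738, 6556 and 5462.5 UMIs. After thinning each barcode to 1000 UMIs, that share was 0.304%, 0.16%, 0.696% and 0.896%, against 60.6%, 70%, 69.6% and 72.9% for the Treg, which the rule had chosen for Foxp3.

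Treg were shallow barcodes, with a median of 2116.5, 2172, 2727 and 2536.5 UMIs in WT 1, WT 2, KO 1 and KO 2 and a median of 1209, 1060, 1437 and 1347 genes. Their UMIs summed to 251132, 78773, 262944 and 283787, so that 1 UMI equals 3.98, 12.7, 3.8 and 3.52 CPM (the UMIs of a gene per 1000000 UMIs of the class in that tumour). WT tumour 2 is therefore the least precise of the 4 sums. Single deep barcodes weighed on some sums: 1 barcode held 14.5% of all Treg UMIs in WT tumour 1 and at most 9.09% in each other tumour. Between 23 and 43 barcode sequences recurred in each pair of libraries, none of them a Treg in both. A doublet score marked 3 Treg in WT tumour 1, 3 in KO tumour 2 and none in the others. The labels were checked with the edited gene: in barcodes over the tumour-gene limit, Hnrnpa2b1 stood at 585, 598, 377 and 311 CPM in WT 1, WT 2, KO 1 and KO 2, lower in both KO tumours but present (the site of the edit is not given in the sources used here). In the host's Treg it stood at 641, 1016, 639 and 483 CPM in WT 1, WT 2, KO 1 and KO 2. In barcodes under the tumour-gene limit with a Csf1r or C1qa UMI it stood at 471, 473, 419 and 357 CPM. Both KO values lay below both WT values there and in Treg as well. A lower level was therefore not limited to barcodes over the tumour-gene limit, and its cause was not tested.

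Threshold values show how the members shade into their neighbours. Exactly 1 Foxp3 UMI was held by 27, 16, 18 and 23 Treg in WT 1, WT 2, KO 1 and KO 2, and at least 3 UMIs by 20, 10, 43 and 41. Ikzf2, which was not part of the rule and encodes the Ikaros family factor Helios, stood at 505, 1460, 2413 and 1617 CPM in the Treg with 1 Foxp3 UMI. In Treg with 2 or more Foxp3 UMIs it stood at 1128, 1703, 1903 and 1672 CPM, and in otherwise equal barcodes without Foxp3 at 162, 145, 288 and 347 CPM. In WT 2, KO 1 and KO 2 the level with a single Foxp3 UMI was nearer to that with more than to that without, and in WT tumour 1 it was nearer to that without. Of the Treg, 5 in WT tumour 1 and 1 in KO tumour 1 lay within 5 UMIs per 10000 of the tumour-gene limit, and no barcode that met the other criteria lay within 5 per 10000 above it.

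The label was checked against markers that did not choose the barcodes. Il2ra was found in 77.3%, 83.9%, 86.4% and 86.4% of Treg in WT 1, WT 2, KO 1 and KO 2, and Ikzf2 in 83.3%, 93.5%, 87.7% and 81.8%. At least 2 of the 5 markers Il2ra, Ikzf2, Izumo1r, Lrrc32 and Il10 were present in 81.8%, 87.1%, 90.1% and 86.4% of Treg, and only 2, 1, 1 and 0 Treg held none of them. The median depth of those barcodes was 1659, 1045 and 1944 UMIs in WT 1, WT 2 and KO 1. Cd4 itself was found in 28.8%, 38.7%, 45.7% and 52.3% of Treg, so in 3 of 4 tumours most Treg held no Cd4 UMI.

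**Figure D1:**
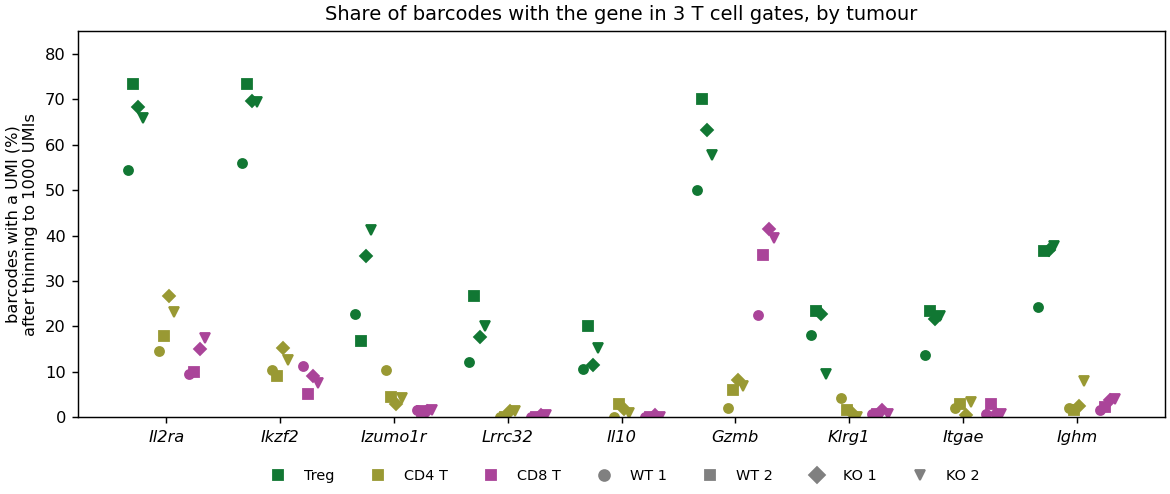
Share of barcodes with at least 1 UMI of each gene after thinning to 1000 UMIs, in percent, in Treg, CD4 T and CD8 T gates, with 1 symbol shape per tumour. Il2ra lies between 54.5% and 73.3% in Treg and at or below 26.7% in CD4 T barcodes, and Gzmb lies between 22.4% and 41.4% in CD8 T barcodes.

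To show where the chosen gene and its companions sit, coordinates are given on GRCm38. Foxp3 lies on chromosome X from 7573644 to 7595245, Il2ra on chromosome 2 from 11642807 to 11693193, Ikzf2 on chromosome 1 from 69531214 to 69687245, Izumo1r on chromosome 9 from 14885814 to 14903949, Lrrc32 on chromosome 7 from 98489283 to 98502181, Il10 on chromosome 1 from 131019845 to 131024974 and Gzmb on chromosome 14 from 56258838 to 56262260. Upstream sequences were taken from RefSeq on GRCm38.p6 for 8 of 15 genes looked up, all on the strand of the gene and each ending 1 base before the annotated start. Those of Foxp3 are printed since it defines the cells, and that of Gzmb and one of Tnfrsf9 since both genes were higher in Treg than in other CD4 T cells (below) and hold a searched motif. The sequence upstream of Il2ra, the receptor chain most tied to Treg, is printed for comparison. Capitals mark matches on either strand to 3 motifs, TGTTTAC (forkhead), TGACTCA (AP-1) and TTCNNNGAA (STAT).
Foxp3, first start site, chrX:7579426-7579675 (plus strand): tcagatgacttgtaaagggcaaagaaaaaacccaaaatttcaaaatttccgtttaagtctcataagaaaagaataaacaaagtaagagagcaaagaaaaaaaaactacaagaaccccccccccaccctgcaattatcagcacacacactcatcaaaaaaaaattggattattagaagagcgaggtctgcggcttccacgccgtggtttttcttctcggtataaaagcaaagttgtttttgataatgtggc
Foxp3, second start site, chrX:7580233-7580482 (plus strand): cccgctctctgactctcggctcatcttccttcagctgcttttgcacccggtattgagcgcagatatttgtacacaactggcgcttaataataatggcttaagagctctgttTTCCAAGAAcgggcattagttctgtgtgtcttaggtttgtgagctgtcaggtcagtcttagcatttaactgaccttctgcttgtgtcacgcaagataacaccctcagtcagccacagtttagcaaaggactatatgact
Il2ra, chr2:11642542-11642791 (plus strand): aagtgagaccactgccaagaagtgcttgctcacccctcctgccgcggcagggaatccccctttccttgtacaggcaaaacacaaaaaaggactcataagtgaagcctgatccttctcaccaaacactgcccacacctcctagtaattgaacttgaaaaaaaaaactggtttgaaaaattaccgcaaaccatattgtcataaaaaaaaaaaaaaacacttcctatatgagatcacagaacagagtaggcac
Gzmb, chr14:56262335-56262584 (minus strand): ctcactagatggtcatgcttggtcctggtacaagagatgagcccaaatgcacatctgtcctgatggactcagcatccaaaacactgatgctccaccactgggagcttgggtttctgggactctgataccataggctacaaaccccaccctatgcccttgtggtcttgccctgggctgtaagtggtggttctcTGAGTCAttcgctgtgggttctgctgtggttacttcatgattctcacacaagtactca
Tnfrsf9, second start site, chr4:150927749-150927998 (plus strand): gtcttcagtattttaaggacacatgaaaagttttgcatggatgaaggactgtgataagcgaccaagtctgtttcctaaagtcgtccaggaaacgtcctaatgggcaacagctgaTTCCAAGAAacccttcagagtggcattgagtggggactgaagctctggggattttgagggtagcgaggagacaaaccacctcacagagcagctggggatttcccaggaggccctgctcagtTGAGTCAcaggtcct
A STAT match lay 139 to 131 bases before the second Foxp3 start and 136 to 128 bases before the second Tnfrsf9 start. AP-1 matches lay 58 to 52 bases before the Gzmb start and 15 to 9 bases before the second Tnfrsf9 start. Among 32851 windows of 250 bases, 7.02% held a STAT match, 4.46% an AP-1 match and 3.17% a forkhead match. A match is a string of letters and no evidence of binding.

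Treg were first set against Foxp3-negative CD4 T cells of the same tumours, to describe what they share beyond the genes of the rule. CD4 T barcodes were chosen in the same way, but with at least 1 Cd4 UMI and no Foxp3 UMI, and numbered 49, 68, 211 and 222 in WT 1, WT 2, KO 1 and KO 2. Treg were higher in the remaining markers of the lineage, in granzyme B, in TNF receptor family members and in interferon-gamma-induced genes. They were lower in genes of helper cytokines and of TNF family ligands. UMI sums of both classes were compared within tumours with edgeR's quasi-likelihood test, and p-values were adjusted by Benjamini-Hochberg over all genes fitted. Log2 fold changes are given with the standard error (SE) of the fit. Of 4060 genes outside the rule, 386 (9.51%) passed an adjusted p of 0.05, 189 of them higher (4.66%) and 197 lower (4.85%) in Treg, beside a median log2 fold change of 0.03 over all genes tested. The requirement of a Cd4 UMI differed between the classes. With Treg limited to barcodes that also held a Cd4 UMI, 293 of 2690 genes tested passed, 256 of them among the 386. The count depended on tumours and depth. It was 164 without KO tumour 1, 162 without KO tumour 2, 199 after thinning to 1000 UMIs and 602 with marked doublets removed.

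All 5 markers of the label outside the rule were higher in Treg. Ikzf2 stood at 828, 1587, 1981 and 1663 CPM in the Treg of WT 1, WT 2, KO 1 and KO 2, and at 158, 141, 200 and 185 CPM in the CD4 T cells. Every Treg sum was above every CD4 T sum, with a log2 fold change of 3.08 (SE 0.19, edgeR adjusted p = 1.27e-06). Il2ra stood at 788, 1295, 1643 and 1212 CPM against 183, 223, 349 and 321 CPM, a log2 fold change of 2.12 (SE 0.17). Izumo1r, which encodes folate receptor 4, stood at 203, 203, 411 and 525 CPM against 83, 24.8, 25 and 43.2 CPM, a log2 fold change of 3.24 (SE 0.34). For Lrrc32, whose product GARP holds latent TGF-beta at the cell surface, the Treg sums were 75.7, 292, 198 and 201 CPM and the CD4 T sums 8.3, 0, 14.3 and 20.2 CPM. Il10, the gene of an inhibitory cytokine, stood at 87.6, 216, 209 and 211 CPM against 0, 45.5, 28.6 and 10.1 CPM. Neither gene overlapped between the classes, with log2 fold changes of 3.81 (SE 0.40) for Lrrc32 and 3.16 (SE 0.36) for Il10.

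Of a list of 18 genes tied to Treg identity, 13 were measured, meaning past the filter on low counts. Of these, 8 were higher, 2 lower and 3 did not pass, beside 4.66% higher and 4.85% lower over all genes tested. The median log2 fold change was 1.73. This and the other lists were chosen with earlier results of these data known. Ikzf4, the gene of the Ikaros family factor Eos, stood at 67.7, 88.9, 224 and 173 CPM in Treg and 33.2, 16.5, 48.9 and 27.4 CPM in CD4 T cells. Socs2, a feedback inhibitor of cytokine receptors, was higher by a log2 fold change of 1.73 and Capg, an actin-capping protein gene, by 0.89. The exceptions were Nrp1 and Rgs1. Nrp1, the gene of neuropilin-1, which is known as a mark of Treg that arise in the thymus, was lower in Treg in every tumour, at 23.9, 50.8, 38 and 52.9 CPM against 208, 78.6, 118 and 125 CPM (a log2 fold change of -1.76, SE 0.33, edgeR adjusted p = 0.0047). Rgs1, a regulator of G protein signalling, was lower by a log2 fold change of -0.76, a call that was lost without WT tumour 1, KO tumour 1 or KO tumour 2.

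Suppressive mediators gave 6 higher, no lower and 7 not passed of 13 measured members, beside 4.66% higher and 4.85% lower over all genes tested. Gzmb, which encodes the serine protease granzyme B of cytotoxic granules, stood at 733, 1536, 1517 and 1434 CPM in Treg and 41.5, 70.3, 153 and 150 CPM in CD4 T cells (log2 fold change 3.56, SE 0.22, edgeR adjusted p = 1.27e-06). Gzmb UMIs were spread over 65.2%, 77.4%, 71.6% and 71.6% of Treg, and the barcode with most of them held between 7.02% and 17.4% of the UMIs. Klrd1 and Klrc1, receptor genes of NK and cytotoxic T cells, were lower in Treg, by log2 fold changes of -4.03 and -2.45. The list of cytotoxic genes therefore did not rise with Gzmb as a whole. Of its 7 measured members, 2 were higher (Gzmb itself and Ccl4) and 3 lower (Ctsw, Klrd1 and Klrc1).

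Areg stood at 438, 812, 357 and 264 CPM in Treg and 399, 273, 94.2 and 86.5 CPM in CD4 T cells, and the classes overlapped across tumours although Treg were higher within each one. Its log2 fold change was 1.26 (SE 0.26, edgeR adjusted p = 0.00831), and the call was lost without KO tumour 1 or without KO tumour 2. Entpd1, which encodes the ectonucleotidase CD39, was higher by a log2 fold change of 1.52 (SE 0.28) and Ctla4 by 0.96 (SE 0.24). Ctla4 stood at 565, 1016, 761 and 603 CPM against 266, 236, 612 and 334 CPM. Its call was lost without WT tumour 1 or KO tumour 2.

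The costimulatory TNF receptor family moved together: 6 of 7 measured members were higher in Treg and none lower, with a median log2 fold change of 1.28. Over all genes tested, 4.66% were higher and 4.85% lower. Tnfrsf4, the gene of OX40, stood at 1708, 2323, 2335 and 2435 CPM against 797, 571, 1019 and 1123 CPM. Tnfrsf9, the gene of 4-1BB, whose second start site is printed above, stood at 546, 1308, 1727 and 1314 CPM against 357, 327, 478 and 395 CPM. Neither gene overlapped between the classes, with log2 fold changes of 1.28 (SE 0.17) and 1.53 (SE 0.21). Tnfrsf18, which encodes GITR, was higher by 0.90, Tnfrsf1b (TNF receptor 2) by 1.18, Cd27 by 1.97 and Tnfrsf13b, which encodes TACI, by 2.64.

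Among receptors of the CD28 and inhibitory families, Icos was higher in Treg at 932, 1866, 2487 and 2061 CPM against 598, 732, 1632 and 1407 CPM (a log2 fold change of 0.71, SE 0.16, edgeR adjusted p = 0.0152). Cd28 did not pass, at 267, 559, 673 and 529 CPM against 216, 302, 589 and 592 CPM. Pdcd1, the gene of the inhibitory receptor PD-1, was lower in Treg, at 27.9, 50.8, 57 and 35.2 CPM against 174, 112, 170 and 169 CPM (a log2 fold change of -2.01, SE 0.27). Lag3 was higher by 0.98 (SE 0.28), but in WT tumour 1 it stood at 104 CPM in Treg and 116 CPM in CD4 T cells, and its call was lost without WT tumour 2, KO tumour 1 or KO tumour 2, and in DESeq2. Calls on Icos were lost without either KO tumour.

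Receptors of differentiated and tissue-bound lymphocytes followed the markers. Klrg1, a lectin-like receptor gene of differentiated lymphocytes, stood at 151, 241, 319 and 137 CPM against 83, 12.4, 3.58 and 4.32 CPM. Itgae encodes integrin alpha E (CD103), which binds E-cadherin, and stood at 115, 279, 251 and 264 CPM against 49.8, 12.4, 2.38 and 24.5 CPM. Both genes were higher in every tumour, with log2 fold changes of 4.07 (SE 0.61, edgeR adjusted p = 0.000862) for Klrg1 and 3.86 (SE 0.49) for Itgae.

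Single Treg showed these genes side by side, though at these depths a missing UMI does not show a missing transcript. In KO tumour 1, 21 Treg held UMIs of both Gzmb and Klrg1, 37 of Gzmb alone, 9 of Klrg1 alone and 14 of neither. In KO tumour 2 the same counts were 22, 41, 5 and 20, in WT tumour 1 they were 15, 28, 8 and 15, and in WT tumour 2 they were 9, 15, 1 and 6. Of the Treg with an Itgae UMI, 17, 11, 27 and 33 in WT 1, WT 2, KO 1 and KO 2 also held Gzmb, and 5, 1, 10 and 11 did not. Since Gzmb UMIs were found in 65.2%, 77.4%, 71.6% and 71.6% of all Treg, most bearers of either gene would hold Gzmb without any tie between the genes, and a tie was not tested. Treg with a Klrg1 UMI were deeper, with medians of 2654, 2637, 3358.5 and 2670 UMIs against 1864, 2029, 2317 and 2282 without one. Klrg1 and Itgae were found together in 9, 7, 14 and 13 Treg, Klrg1 alone in 14, 3, 16 and 14 and Itgae alone in 13, 5, 23 and 31.

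Genes of resting T cells and of lymphoid homing split. Of 11 measured members, 2 were higher in Treg, 3 (Tcf7, Satb1 and Bcl2) were lower and 6 did not pass. These counts stand beside 4.66% higher and 4.85% lower over all genes tested. The median log2 fold change was -0.11. The call on Satb1 was lost without either KO tumour, with at least 2 Foxp3 UMIs and with Treg limited to barcodes with a Cd4 UMI. Tcf7, the gene of the factor TCF1 of stem-like T cells, stood at 7.96, 0, 22.8 and 3.52 CPM in Treg against 83, 78.6, 71.5 and 82.2 CPM in CD4 T cells. Bcl2, which encodes a survival protein, stood at 15.9, 0, 26.6 and 24.7 CPM against 58.1, 203, 143 and 141 CPM. Their log2 fold changes were -2.94 (SE 0.47) and -2.68 (SE 0.37). Il7r, the interleukin-7 receptor gene that textbooks give as low in Treg, did not differ past the threshold, at 478, 647, 1419 and 1128 CPM against 706, 484, 888 and 830 CPM (a log2 fold change of 0.21, SE 0.20).

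Chemokine receptors differed by member, with 2 of 10 measured members higher and 1 lower, beside 4.66% higher and 4.85% lower over all genes tested. Ccr2, the receptor for CCL2, stood at 418, 787, 1666 and 927 CPM in Treg against 83, 203, 506 and 408 CPM in CD4 T cells, and was higher in Treg in each tumour (log2 fold change 1.63, SE 0.19, edgeR adjusted p = 0.000174). Ccr2 UMIs were found in 71.2%, 64.5%, 87.7% and 83% of Treg. Cxcr6, the receptor for CXCL16, was lower, at 63.7, 50.8, 175 and 130 CPM against 340, 298, 844 and 633 CPM (a log2 fold change of -2.39, SE 0.19).

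Helper genes marked the other side of the comparison. Of 6 measured members of the conventional CD4 list outside the rule, 5 were lower in Treg and none higher. Over all genes tested, 4.85% were lower and 4.66% higher. The list had a median log2 fold change of -3.55. Il13, a type 2 cytokine gene, stood at 781, 41.4, 72.7 and 50.5 CPM in CD4 T cells, and 1 Il13 UMI was counted in all Treg together. Few CD4 T barcodes held it: 8.16%, 5.88%, 5.21% and 4.95% in WT 1, WT 2, KO 1 and KO 2. In WT tumour 1 these were 4 of 49 barcodes. Tnfsf8, the gene of CD30 ligand, stood at 324, 219, 434 and 376 CPM in CD4 T cells and at 0, 0, 15.2 and 0 CPM in Treg. Ifng stood at 598, 190, 250 and 134 CPM against 15.9, 0, 19 and 52.9 CPM in Treg. Cd40lg, which encodes CD40 ligand, stood at 108, 62, 71.5 and 86.5 CPM against 3.98, 0, 0 and 14.1 CPM.

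Tnfsf11, the gene of RANK ligand, was lower in Treg by a log2 fold change of -3.74 (SE 0.29), Ifng by -3.37 (SE 0.47), Cd40lg by -3.89 (SE 0.51), Tnfsf8 by -6.28 (SE 0.45) and the transcription factor gene Bhlhe40 by -1.91 (SE 0.18). A 0 in WT tumour 2 allows up to 38.1 CPM, the value of 3 UMIs there, since its sum is the smallest. The chemokine gene Ccl1 stood at 872, 687, 66.8 and 321 CPM in CD4 T cells, and all 16 of its Treg UMIs came from 1 barcode of KO tumour 1. Its call was lost without WT tumour 1 or KO tumour 2. The remaining lower genes of the 15 with the largest change were Pde3b, Ramp3, Nmrk1, Fasl, Serpinb1a, Serpinb9 and Sorl1, at log2 fold changes from -3.44 (Pde3b) to -2.47 (Sorl1). Fasl encodes the death ligand FAS ligand, and Serpinb9 an inhibitor of granzyme B, the protease whose gene was higher in Treg.

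**Figure D2:**
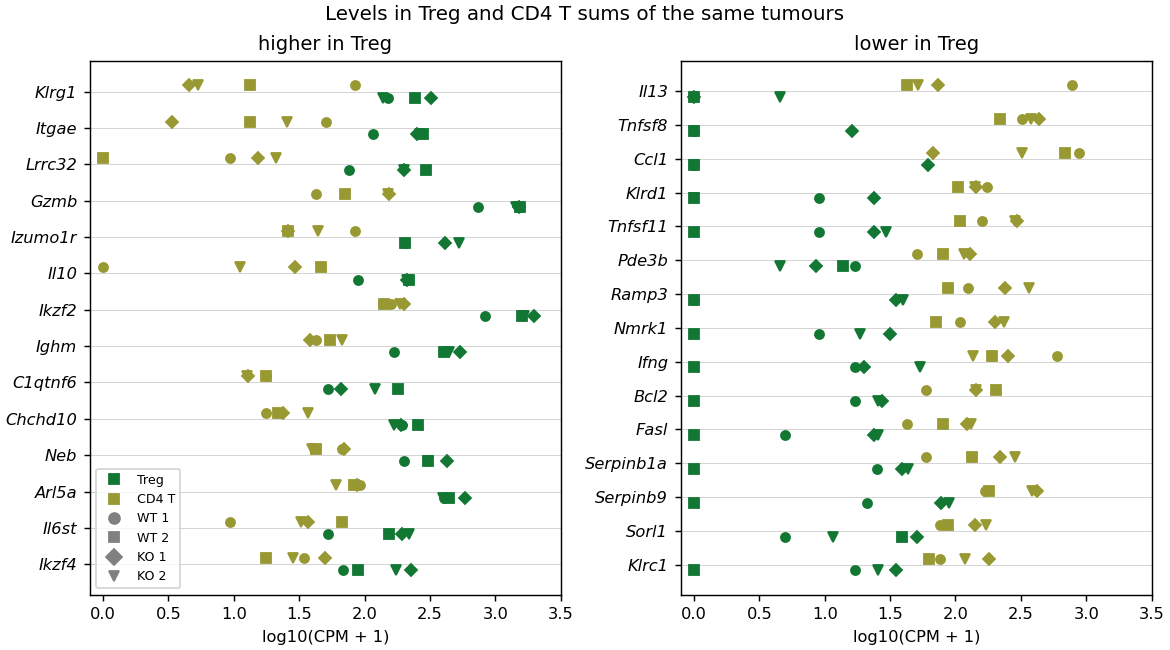
Levels of 14 of the 15 higher genes and of the 15 lower genes with the largest fold changes in Treg against CD4 T cells, as log10 of CPM plus 1, with 1 symbol shape per tumour. Within each tumour the Treg point lies to the right of the CD4 T point for every gene in the left panel and to the left of it in the right panel.

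Genes of the interferon-gamma response were higher in Treg in 11 of 20 measured members and lower in none, with a median log2 fold change of 0.73, while Ifng itself was lower. Igtp, an immunity-related GTPase gene, stood at 211, 584, 685 and 455 CPM against 91.3, 128, 219 and 205 CPM (a log2 fold change of 1.48, SE 0.21, edgeR adjusted p = 0.000472). Gbp7, of the guanylate-binding proteins, was higher by 1.14 (SE 0.20). Of the 11 measured type I interferon genes 1 was higher and 1 lower. Over all genes tested, 4.66% were higher and 4.85% lower, so single calls in so short a list say little. In the type 1 helper list, 4 of 13 members were higher and 4 lower (Ifng, Il12rb2, Stat4, Runx3). The call on Runx3 was lost without either KO tumour.

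Transcription factors of effector Treg were among the higher genes. Maf stood at 816, 1066, 1886 and 1413 CPM against 448, 360, 883 and 565 CPM (a log2 fold change of 1.15, SE 0.16), and Nfil3 was higher by 1.55 (SE 0.23). Prdm1, the gene of BLIMP1, was higher by 1.00 (SE 0.28), a call lost when any 1 tumour was left out and in DESeq2. Gata3 and Rora did not pass. Of 18 measured cell cycle genes, 3 were higher and none lower, beside 4.66% higher and 4.85% lower over all genes tested. Their median log2 fold change was 0.36. Mki67, a gene of dividing cells, stood at 788, 292, 331 and 222 CPM in Treg against 266, 128, 120 and 166 CPM (a log2 fold change of 1.08, SE 0.22), with the call lost without KO tumour 1.

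A gene of another lineage stood among the 15 higher genes of largest fold change. Ighm, the immunoglobulin heavy constant mu gene on chromosome 12, stood at 167, 406, 532 and 444 CPM in Treg against 41.5, 53.8, 37 and 66.3 CPM in CD4 T cells and 12.7, 22.2, 33.1 and 27.6 CPM in CD8 T cells (log2 fold change 3.01 against CD4 T cells, SE 0.26, edgeR adjusted p = 1.79e-05). Ighm UMIs were found in 43.9%, 58.1%, 59.3% and 52.3% of Treg, and the barcode with most of them held at most 13.6% of the UMIs. Cd79a, the gene of a B cell receptor chain, was at 0 in the Treg of all 4 tumours, as was Ms4a1. Of the 7 genes of the B and plasma cell list, 4 to 6 were at 0 in each Treg sum. Other higher genes of the 15 with the largest change were Chchd10, a mitochondrial protein gene, at 191, 254, 190 and 166 CPM against 16.6, 20.7, 22.7 and 36 CPM, and Neb, the nebulin gene of muscle thin filaments, at 199, 305, 430 and 307 CPM against 66.4, 41.4, 69.2 and 38.9 CPM. Also among them were C1qtnf6, Arl5a and Il6st, which encodes the shared receptor chain gp130, at log2 fold changes of 2.82, 2.51 and 2.23.

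Few markers of other cells passed between the classes, though some summed levels differed. Of 7 measured macrophage genes 1 was higher in Treg, Ccr2, which T cells also express. None passed of the measured genes, which were 1 of 10 neutrophil, 3 of 11 dendritic, 6 of 10 fibroblast and 1 of 5 endothelial genes. The other genes of these lists were not tested. The summed level of the macrophage list was 1286, 2018, 3609 and 2488 CPM in Treg and 897, 790, 2436 and 1805 CPM in CD4 T cells, higher in Treg in each tumour. The dendritic list summed to 685, 2818, 700 and 585 CPM against 374, 223, 1452 and 308 CPM, and the fibroblast list to 2935, 368, 780 and 6811 CPM against 1080, 1353, 1685 and 261 CPM. RNA make-up also differed: ribosomal protein genes held 17.5%, 9.81%, 10.2% and 11.3% of Treg UMIs against 19.5%, 16.8%, 14.1% and 17.3% of those of CD4 T cells. Malat1, a nuclear RNA, held 1.6%, 2.06%, 2.24% and 2.27% against 1.48%, 1.36%, 1.87% and 1.88%. In each tumour the first share was lower and the second higher in Treg. The part of these shares and transcripts in the gene differences was not tested. In some tumours 1 barcode held most UMIs of a gene: 98% of Col1a1 UMIs in the Treg of KO tumour 2, against 12.1% in KO tumour 1, and 82.1% of H2-Aa UMIs in WT tumour 2, against 7.69% and 10.5% in KO tumours 1 and 2. Without the deepest Treg barcode of each tumour 452 genes passed, 371 of them among the 386.

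The second question was whether Treg differ between KO and WT tumours in number. As a share of all kept barcodes, Treg made up 0.522% (exact 95% binomial interval 0.404 to 0.664) in WT tumour 1 and 0.276% (0.188 to 0.392) in WT tumour 2, against 0.865% (0.688 to 1.07) in KO tumour 1 and 0.926% (0.744 to 1.14) in KO tumour 2. Both KO shares lay above both WT shares. The mean was 0.399% ± 0.174 (SD, n = 2) in WT and 0.896% ± 0.0433 (SD, n = 2) in KO tumours, a log2 ratio of 1.16 (SE 0.40, edgeR adjusted p = 0.0361 over 3 denominators). Intervals cover counting error only, and a share of barcodes depends on how many other cells were recovered. The call was lost without KO tumour 1 (adjusted p = 0.167) or KO tumour 2 (0.224) and with the replicate number as a block (0.0983). Permuting 2 tumours a group exactly gives no p under 1 in 3.

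Among T cells the order was another. Treg made up 14.3% (11.3 to 17.9) of CD3 barcodes in WT tumour 1, 6.21% (4.26 to 8.7) in WT tumour 2, 6.39% (5.11 to 7.88) in KO tumour 1 and 6.15% (4.96 to 7.53) in KO tumour 2. WT tumour 1 stood apart and the other 3 tumours were within each other's intervals. The log2 ratio of KO to WT was -0.70 (SE 0.39, edgeR adjusted p = 0.153) and was 0.012 without WT tumour 1 and -0.25 (adjusted p = 0.51) with at least 2 Foxp3 UMIs. It passed without WT tumour 2, at -1.19 (adjusted p = 0.00686), and with marked doublets removed, at -0.73 (adjusted p = 0.0489). Of Treg and CD4 T barcodes together, Treg were 57.4% and 31.3% in WT and 27.7% and 28.4% in KO tumours (log2 ratio -0.67, SE 0.38, edgeR adjusted p = 0.153). That ratio passed without WT tumour 2, at -1.03 (adjusted p = 0.00215).

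**Figure D3:**
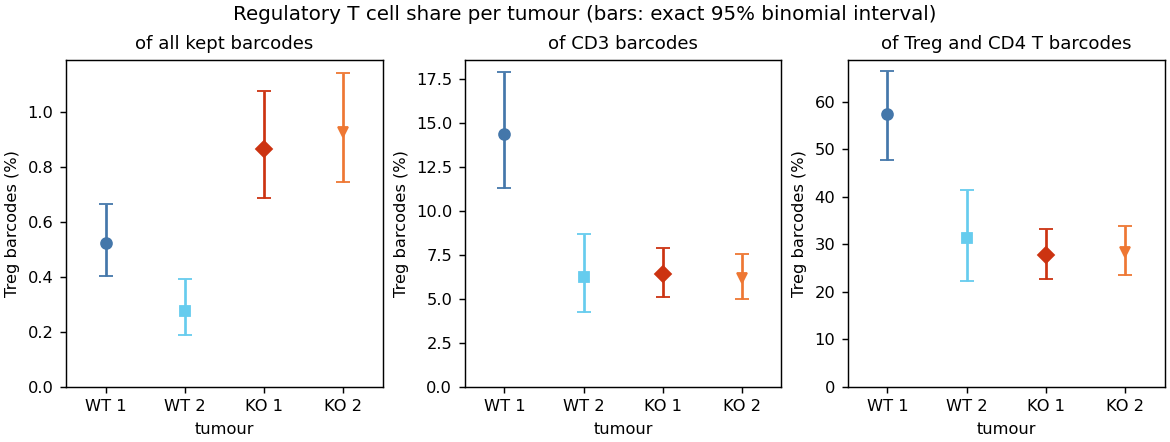
Treg as a percentage of all kept barcodes, of CD3 barcodes and of Treg plus CD4 T barcodes, 1 point per tumour with exact 95% binomial intervals. KO tumours lie above WT tumours in the first panel, and in the other panels WT tumour 1 lies above the remaining 3, which overlap.

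Per CD8 T barcode, there were 0.524 Treg in WT tumour 1, 0.217 in WT tumour 2, 0.135 in KO tumour 1 and 0.139 in KO tumour 2, from 126, 143, 598 and 635 CD8 T barcodes. Both KO ratios lay below both WT ratios. The share of CD8 T barcodes among all kept ones had a log2 ratio of 2.52 (SE 0.38) between KO and WT and that of CD4 T barcodes 2.21 (SE 0.39), against 1.16 for Treg. It was 1.18 (SE 0.37) for the other CD3 barcodes and 1.09 (SE 0.36) for barcodes with a Csf1r or C1qa UMI, values close to that of Treg. Counting barcodes with up to 1 UMI of each excluded gene as members changed no call on the 3 shares.

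The third comparison was of gene levels within Treg between KO and WT tumours, on UMI sums per tumour. No gene passed an adjusted p of 0.05. With all 4 tumours most members of several Treg lists had positive and all measured cell cycle genes negative fold changes, but the medians of the Treg identity, TNF receptor and coinhibitory receptor lists fell to near 0 or below it without WT tumour 1. By edgeR's quasi-likelihood test 0 of 4330 genes (0%) passed after Benjamini-Hochberg adjustment, and 515 (11.9%) had an unadjusted p under 0.05. DESeq2 also called 0, with 137 at an unadjusted p under 0.05. CPM values did not overlap between the groups for 1831 genes (42.3%), of which 1124 (26%) were higher and 707 (16.3%) lower in KO tumours. These CPM lack the TMM scaling of the fit, in which 2149 of 4330 fold changes were positive. WT tumour 1 differed from the others in RNA make-up, and the part of this in the gene differences was not tested. Its Treg held 1.11% mitochondrial and 17.5% ribosomal protein UMIs, against 2.35% to 4.22% and 9.81% to 11.3% in the other tumours.

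Single tumours moved the count of calls strongly. Without WT tumour 2, whose sum is the smallest, 509 genes passed (285 higher and 224 lower in KO), with WT tumour 1 as the lone WT sample, assumed to vary as the KO tumours do. Without WT tumour 1, 39 passed, without KO tumour 1, 24, and without KO tumour 2, 8. Allowing up to 1 UMI of each excluded gene raised the members to 81, 36, 129 and 129 in WT 1, WT 2, KO 1 and KO 2, and 406 genes then passed, 209 higher and 197 lower in KO. Of the genes named below, Areg, Cenpf, Cxcl2 and Satb1 passed without WT tumour 1 by edgeR, and most passed without WT tumour 2. Fold changes below are of all 4 tumours unless stated otherwise, did not pass, and are given with their spread.

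Markers of the lineage came first. Foxp3, which chose the barcodes and is given without a test, stood at 569, 851, 1012 and 877 CPM in the Treg of WT 1, WT 2, KO 1 and KO 2. Izumo1r stood at 203 CPM in both WT tumours and at 411 and 525 CPM in KO tumours, a log2 fold change of 1.14 (SE 0.32, edgeR adjusted p = 0.268). Ikzf2 was at 828 and 1587 CPM in WT and 1981 and 1663 CPM in KO tumours, without overlap but with the WT values farther apart than WT tumour 2 is from KO (0.53, SE 0.41). Il2ra, at 788 and 1295 against 1643 and 1212 CPM, overlapped, as did Lrrc32, at 75.7 and 292 against 198 and 201 CPM, and Il10, at 87.6 and 216 against 209 and 211 CPM. In each of these 3 genes the lowest value was that of WT tumour 1. Without WT tumour 1, Lrrc32 turned to -0.66 and Il10 to -0.15. The Treg identity list, which does not hold Foxp3, was positive in 12 of 14 measured members with a median of 0.44, against -0.01 over all genes tested. Without WT tumour 1 it was positive in 8 of 14 with a median of 0.05, and without WT tumour 2 its median was 0.97. After thinning to 1000 UMIs the median was 0.04.

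All 8 measured costimulatory TNF receptor genes had a positive fold change, with a median of 0.76, which was 0.10 without WT tumour 1. Of them, 7 were higher in KO without overlap, beside 26% of all genes tested. Tnfrsf9 stood at 546 and 1308 CPM in WT and 1727 and 1314 CPM in KO tumours, where WT tumour 2 and KO tumour 2 are level. Traf1, an adaptor of these receptors, stood at 454 and 520 against 943 and 990 CPM, with a gap between groups wider than the spread within either (0.93, SE 0.32, edgeR adjusted p = 0.324). Icos stood at 932 and 1866 against 2487 and 2061 CPM, and Lag3 at 104 and 305 against 354 and 317 CPM, with WT tumour 1 lowest in both. The coinhibitory receptor list was positive in 7 of 9 measured members with a median of 0.43. Without WT tumour 1 it was positive in 3 of 10 with a median of -0.33, so its direction turned, and without WT tumour 2 the median was 0.94.

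**Figure D4:**
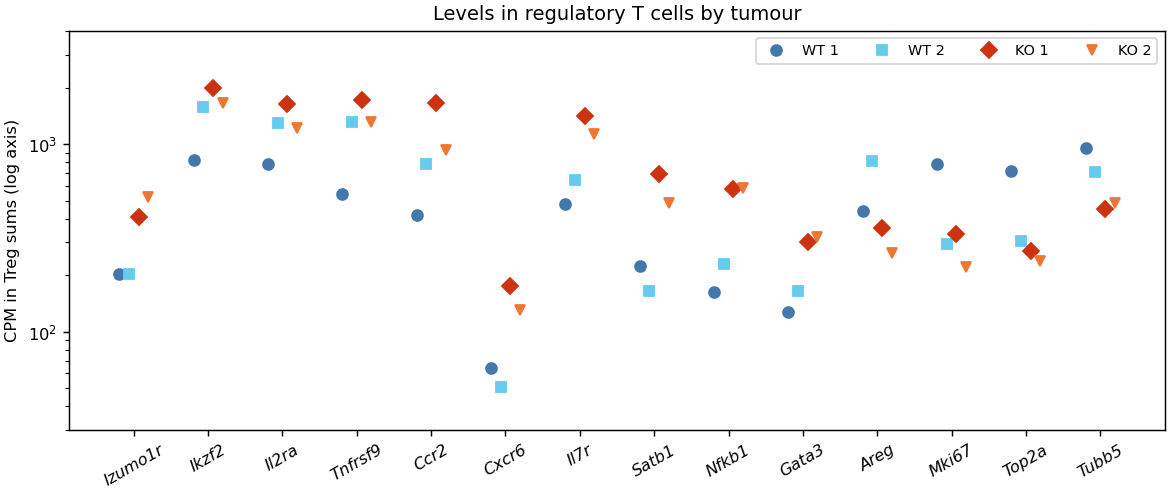
Levels of 14 genes in the Treg sum of each tumour, in CPM on a log axis, 1 point per tumour. For Cxcr6, Satb1, Nfkb1 and Gata3 both KO points lie above both WT points by more than the WT points differ, while for Ikzf2, Il2ra and Tnfrsf9 WT tumour 2 lies near the KO tumours.

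The IL-2 receptor and STAT5 list was positive in 14 of 14 measured members, with a median of 0.59, which was 0.28 without WT tumour 1 and 0.91 without WT tumour 2. Of the 14 members, 11 were higher in KO without overlap, beside 26% of all genes tested. Il2rb, the signalling chain shared by the receptors for interleukin-2 and interleukin-15, stood at 338 and 571 CPM in WT against 810 and 606 CPM in KO tumours (0.61, SE 0.37). Jak1, a kinase bound to the receptor, stood at 287 and 355 against 502 and 444 CPM, and Pim1, a STAT5 target that encodes a kinase, at 773 and 1282 against 1768 and 1321 CPM. None of the 3 overlapped, and for Il2rb and Pim1 the gap between WT tumour 2 and KO tumour 2 was small beside the distance between the WT tumours.

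The chemokine receptor list had a median of 1.03, with 9 of 10 measured members positive, 6 not overlapping higher and none lower. Over all genes tested, 26% were higher and 16.3% lower without overlap. Ccr2 stood at 418 and 787 CPM in WT against 1666 and 927 CPM in KO tumours (1.07, SE 0.44, edgeR adjusted p = 0.383). Cxcr6 stood at 63.7 and 50.8 against 175 and 130 CPM (1.29, SE 0.41), and here WT tumour 2 was the lowest.

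Several transcription factor genes were well separated between the groups. The list of T cell receptor activation factors, which holds Nfkb1, did not move as a whole. It was positive in 8 of 14 measured members with a median of 0.15, with 4 members higher and 1 lower without overlap. Over all genes tested, 26% were higher and 16.3% lower without overlap, so the list did not stand out. Without WT tumour 1 it was positive in 7 of 15 with a median of -0.16. Nfkb1, which encodes the NF-kB subunit p50, stood at 163 and 229 CPM in WT and 578 and 585 CPM in KO tumours (1.56, SE 0.34, edgeR adjusted p = 0.268, unadjusted p = 0.00103). Rel, the gene of the NF-kB subunit c-Rel that takes part in Foxp3 induction, stood at 147 and 165 against 441 and 342 CPM. Satb1, a chromatin organiser gene, stood at 223 and 165 against 692 and 486 CPM (1.49, SE 0.34), and Gata3 at 127 and 165 against 300 and 321 CPM (1.08, SE 0.33). For each of these 4 genes the groups were farther apart than the tumours within a group.

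The CD4 T cells of the same tumours differed in the same direction. Nfkb1 stood there at 324 and 290 CPM in WT and 792 and 836 CPM in KO tumours, Rel at 158 and 136 against 377 and 392 CPM, and Satb1 at 266 and 352 against 987 and 1103 CPM. The difference between the KO effect in Treg and that in CD4 T cells was tested as an interaction term over 5176 genes. By edgeR 0 (0%) passed an adjusted p of 0.05 and 163 (3.15%) had an unadjusted p under 0.05, with 0 and 26 in DESeq2. Its estimate was 0.23 (SE 0.41) for Nfkb1, -0.02 (SE 0.44) for Rel and -0.19 (SE 0.46) for Satb1, intervals that leave room for sizable differences either way. Izumo1r had an estimate of 1.80 (SE 0.59), with an edgeR adjusted p of 1.

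The list of resting and lymphoid homing genes was positive in 7 of 9 measured members with a median of 0.86, which was 0.45 without KO tumour 1, with 5 of 9 then positive. Il7r, the interleukin-7 receptor gene, was at 478 and 647 CPM in WT against 1419 and 1128 CPM in KO tumours (1.13, SE 0.35, edgeR adjusted p = 0.296). Maf stood at 816 and 1066 against 1886 and 1413 CPM and Rora at 111 and 305 against 510 and 405 CPM. Crem, a cAMP-responsive factor gene, stood at 147 and 254 against 532 and 402 CPM (1.24, SE 0.37). The tissue repair list had a median of 0.77 with 11 of 12 members positive. Without WT tumour 1 it had a median of 0.49 with 7 of 12 positive. Areg, the member below 0 with all tumours, stood at 438 and 812 CPM in WT and at 357 and 264 CPM in KO tumours (-1.04, SE 0.39, edgeR adjusted p = 0.364). It was at -1.50 and passed without WT tumour 1 (edgeR adjusted p = 0.000925), and was at -0.51 without WT tumour 2. In CD4 T cells Areg was likewise at 399 and 273 against 94.2 and 86.5 CPM.

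Suppressive mediators were mixed, with 8 of 13 members positive and a median of 0.29. The median was 0.07 without WT tumour 1, 1.06 without WT tumour 2 and -0.22 after thinning. Interferon-gamma response genes were positive in 19 of 22 members with a median of 0.55, which was 0.11 without WT tumour 1, 0.88 without WT tumour 2 and 0.33 without KO tumour 1. The glycolysis and hypoxia list had a median of 0.02, which ranged from -0.36 without KO tumour 2 to 0.33 without WT tumour 1.

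Cell cycle genes stood lower in KO tumours in all 21 measured members, 12 of them without overlap, with a median of -0.96. Over all genes tested, 16.3% were lower without overlap. Mki67 stood at 788 and 292 CPM in WT and 331 and 222 CPM in KO tumours, so WT tumour 1 was the single high value, and the share of Treg with an Mki67 UMI was 45.5%, 9.68%, 23.5% and 17% in WT 1, WT 2, KO 1 and KO 2. Top2a, a topoisomerase of dividing cells, stood at 717 and 305 against 270 and 240 CPM (-1.12, SE 0.39, edgeR adjusted p = 0.319), and Hmgb2 at 1473 and 609 against 688 and 472 CPM. Tubb5, a tubulin gene, stood at 952 and 711 against 449 and 483 CPM (-0.91, SE 0.32). The list median was -0.44 without WT tumour 1, with 5 of 22 members then positive, and -1.36 without WT tumour 2. The summed level of the 14 tumour genes in Treg was 784, 229, 194 and 190 CPM in WT 1, WT 2, KO 1 and KO 2. Of these genes, 7 are those that the rule limits, so the sum is a description. With the tumour-gene limit set at 5 per 10000, which left 37, 26, 73 and 80 Treg, the cell cycle median was -1.18. The part of tumour-cell transcripts in the cell cycle difference was not tested.

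**Figure D5:**
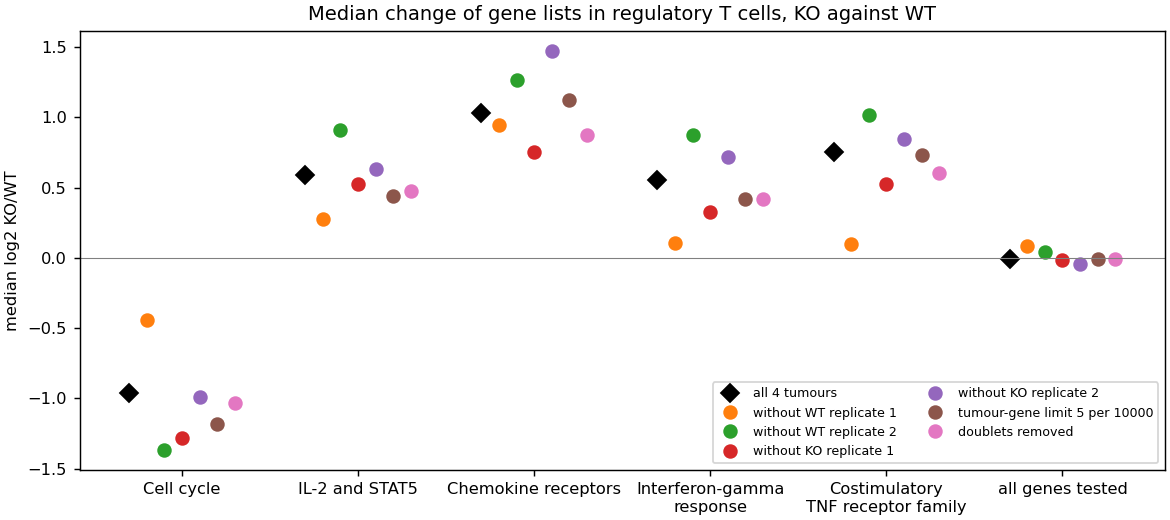
Median log2 fold change, KO against WT in Treg, of 5 gene lists and of all genes tested, with all tumours (diamonds) and under 6 alternatives (circles). The cell cycle median stays between -1.36 and -0.44, and those of the interferon-gamma and TNF receptor lists come near 0 without WT tumour 1.

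Outside the lists, the genes of smallest unadjusted p, chosen after their values were seen, were Cenpf and Cxcl2, besides Tnnt2, one of the tumour genes of the rule. Cenpf, a centromere protein gene of dividing cells, stood at 283 and 216 CPM in WT against 72.3 and 49.3 CPM in KO tumours (-2.13, SE 0.37, edgeR adjusted p = 0.214). The barcode with most Cenpf UMIs held 36.6%, 47.1%, 57.9% and 42.9% of them in WT 1, WT 2, KO 1 and KO 2. Cxcl2, a neutrophil-attracting chemokine gene of myeloid cells, stood at 104 and 127 against 407 and 476 CPM, and 1 barcode held 34.6%, 50%, 36.4% and 51.9% of its UMIs in the same order. Markers of other cells differed by list. In WT 1, WT 2, KO 1 and KO 2, the neutrophil list summed to 104, 140, 278 and 395 CPM. The macrophage list summed to 1286, 2018, 3609 and 2488 CPM, and both lists were higher in KO tumours. The dendritic list summed to 685, 2818, 700 and 585 CPM and the fibroblast list to 2935, 368, 780 and 6811 CPM, and both overlapped. The tumour gene list was lower in KO tumours, at 784, 229, 194 and 190 CPM. The macrophage gene Cd68 was at 0 in both WT sums, and S100a8 of neutrophils in both. The part of these transcripts in the gene differences was not tested.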

How the data were processed

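The 4 libraries are droplet single-cell RNA sequencing, deposited as counts: per the file headers and the labels' protocols the authors made UMI count matrices per gene and barcode with Cell Ranger on mm10. The matrix headers name Cell Ranger 6.1.2 and the labels 5.0.1, and the submitters' processing notes name Seurat 5.1.0, with no role. All 55450 feature IDs were found in GENCODE vM21.

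The rule for members and all gene lists were chosen with earlier results of these data known. Cells are not replicates, so UMIs were summed per tumour and class and fitted with edgeR 4.0.16 (R 4.3.3; TMM, filterByExpr, quasi-likelihood test, two-sided, Benjamini-Hochberg), with tumour as a term in comparisons between classes. The fitting code was tested on simulated data with known changes in 200 genes of at least 50 CPM. Between KO and WT in Treg, it recovered 2.99% of 1.5-fold, 7.46% of 2-fold and 69.7% of 4-fold changes. For the difference between the KO effects in Treg and CD4 T cells, it recovered 0%, 0% and 24.2%. A count of 0 calls in these comparisons therefore does not show that no gene changed. Shares were tested with edgeR on barcode counts per gate, without TMM, with the spread estimated jointly over the gates of each denominator. DESeq2 1.42.0, other filters, thinning to 1000 UMIs per barcode, removal of barcodes marked by Scrublet (at 0.8% per 1000 barcodes of a library) and leaving out each tumour were alternatives. Doublets were kept in the values reported.

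Between Treg and CD4 T cells, named genes were the 15 higher and 15 lower genes of largest fold change past the threshold with at least 50 CPM on average and 1 direction in all 4 tumours, and up to 4 members of each list by mean CPM. The same list members and the 6 markers were named between KO and WT. Other genes were named after their values were seen. Some genes that this rule names are not reported here.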

Additional observations from a re-analysis of the deposited data

How the results depend on the processing

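With 2 tumours a group, single libraries decide several results, and WT tumour 2 has the fewest Treg. Genes called between KO and WT in Treg were 0 with all tumours and ranged from 8 to 509 when 1 was left out. They numbered 95 without a filter on low counts and 406 with up to 1 UMI of each excluded gene, an alternative chosen after seeing the data. They stayed at 0 with DESeq2, with DESeq2's size factors, with at least 2 Foxp3 UMIs, with the tumour-gene limit of 5 per 10000, with doublets removed, after thinning and, also chosen after seeing the data, without the deepest barcodes. Same-numbered tumours deviated in opposite directions (r = -0.27 across 4330 genes, which are not independent). The replicate block gave 0 calls and a crossed pairing, chosen after seeing the data, 213. Calls on the difference between the KO effects in Treg and CD4 T cells were 0 with all tumours, 0 to 10 with 1 left out, 10 without a filter and 1 with doublets removed. Between Treg and CD4 T cells, 162 to 377 genes were called with 1 tumour left out, 602 with doublets removed and 199 after thinning, where fewer genes could be tested. In a set of 66 genes followed there, 64 passed, 53 to 62 passed with 1 tumour left out, and none reversed. This set is not the list of genes named in the text. It holds Klf2 and Ly6a, which are not reported above, and among the genes reported Cd28, Il7r, Gata3 and Rora did not pass. The 15 higher and 15 lower genes of largest change were chosen for passing and for 1 direction in every tumour. That choice partly fixed these counts, which are therefore no independent check. Limiting Treg to barcodes with a Cd4 UMI was chosen after seeing the data.

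The log2 ratio of the Treg share of all kept barcodes was 0.78 to 1.69 with 1 tumour left out, and under the replicate block it was 1.21, no longer past the threshold. For CD3 barcodes the ratio was -1.19 to 0.012 with 1 tumour left out, where the sign turned without WT tumour 1, and -0.73, past the threshold, with doublets removed. For Treg and CD4 T barcodes it was -1.03 to -0.16. The replicate block changed no other call. Among named genes between KO and WT, Lrrc32 ranged from -0.66 to 1.37 and Il10 from -0.15 to 1.24 with 1 tumour left out, both negative without WT tumour 1, and Il10 turned to -0.22 after thinning. The causes of these shifts were not tested. A count of 0 in the Treg of WT tumour 2 allows up to 38.1 CPM, and up to 11.9 CPM in each other tumour.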
